A study of Rattus norvegicus with 9 samples.

Results

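This report concerns 9 genes of hepatocytes around the central vein that are not cytochrome P450s, namely Glul, Oat, Rhbg, Slc1a2, Gulo, Axin2, Lgr5, Tbx3 and Ahr, in rat liver after carbon tetrachloride (CCl4) with or without rottlerin. The genes were chosen by name, and every array row naming one of them was taken. Rhbg, an ammonia transporter, had no row, so 8 of the 9 genes were measured, through 16 probe sets. The whole table names 14377 genes singly. Where a gene had several probe sets, the brightest on average gave its value. The others are mentioned beside it, some only by a correlation or by being called present on no array.

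In the liver lobule, blood flows from the portal tract to the central vein, and hepatocytes along this path divide their metabolic work. Wnt ligands and R-spondins from central vein endothelial cells keep beta-catenin active in the innermost hepatocytes, which make glutamine from the ammonia that the periportal urea cycle has left. These same cells activate CCl4 through Cyp2e1, and the injury it causes is centred on them.

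Each of 9 male Sprague-Dawley rats gave 1 liver array, with 3 rats in each group. Vehicle rats (labelled 3, 4 and 5) received no CCl4 and no rottlerin. CCl4 rats (labelled 1, 2 and 3) were given a mix of equal parts CCl4 and olive oil intraperitoneally, 0.2 mL per 100 g body weight, 2 times a week for 8 weeks. CCl4+Rot rats (labelled 4, 5 and 6) had the same CCl4 course plus intraperitoneal rottlerin, an activator of the large-conductance calcium-activated potassium (BK) channel, at 2.5 mg/kg, starting 2 weeks after the first CCl4 injection. The rats' age, what the vehicle contained and how often rottlerin was given are not stated in the sources used here. There was no group with rottlerin alone. All values below are log2 signals, on which a difference of 1 unit is 2-fold, and are listed in the order of these labels.

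All 9 hepatocyte markers measured were called present on every array. The array of CCl4 replicate 3 stood apart. It had 12714 probe sets called present, against 15550 to 16849 on the other arrays, and its correlations with the other CCl4 arrays were 0.872 and 0.873, against 0.931 to 0.943 for all other pairs within a group. Its brightest probe sets were lower (median 12.66 over the 1173 probe sets with a mean above 12, against 12.96 to 13.05), while its overall median was higher (7.81 against 6.79 to 7.01). The summed signal of the hepatocyte markers was 172824 on this array and 227795 to 256863 on the others. In whole liver, fewer cells of a type and less RNA per cell cannot be told apart.

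None of the 8 genes passed the test in any comparison, which was an adjusted p below 0.05 in limma together with a 1.5-fold difference. Of all 31042 probe sets, 0% passed in CCl4 against vehicle, 0.00322% in CCl4+Rot against CCl4 and 0.0258% in CCl4+Rot against vehicle. Of the 5 genes called present on every array, the enzymes Glul, Oat and Gulo had lower means in CCl4 than in vehicle, whereas Axin2 and Tbx3 had higher means. Slc1a2, Lgr5 and Ahr were called present on no CCl4 array. Oat and Slc1a2 were the only genes of the 8 whose signal in every CCl4 rat lay below that in every vehicle rat, as it did for 7.14% of all probe sets. In CCl4+Rot against CCl4, Glul, Oat and Gulo had higher means, by 0.78, 0.91 and 0.37. No gene of the 8 had groups that did not overlap there, against 4.73% of probe sets in the higher and 6.88% in the lower direction. The CCl4 arrays enter both of these comparisons, with opposite signs.

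**Figure D1:**
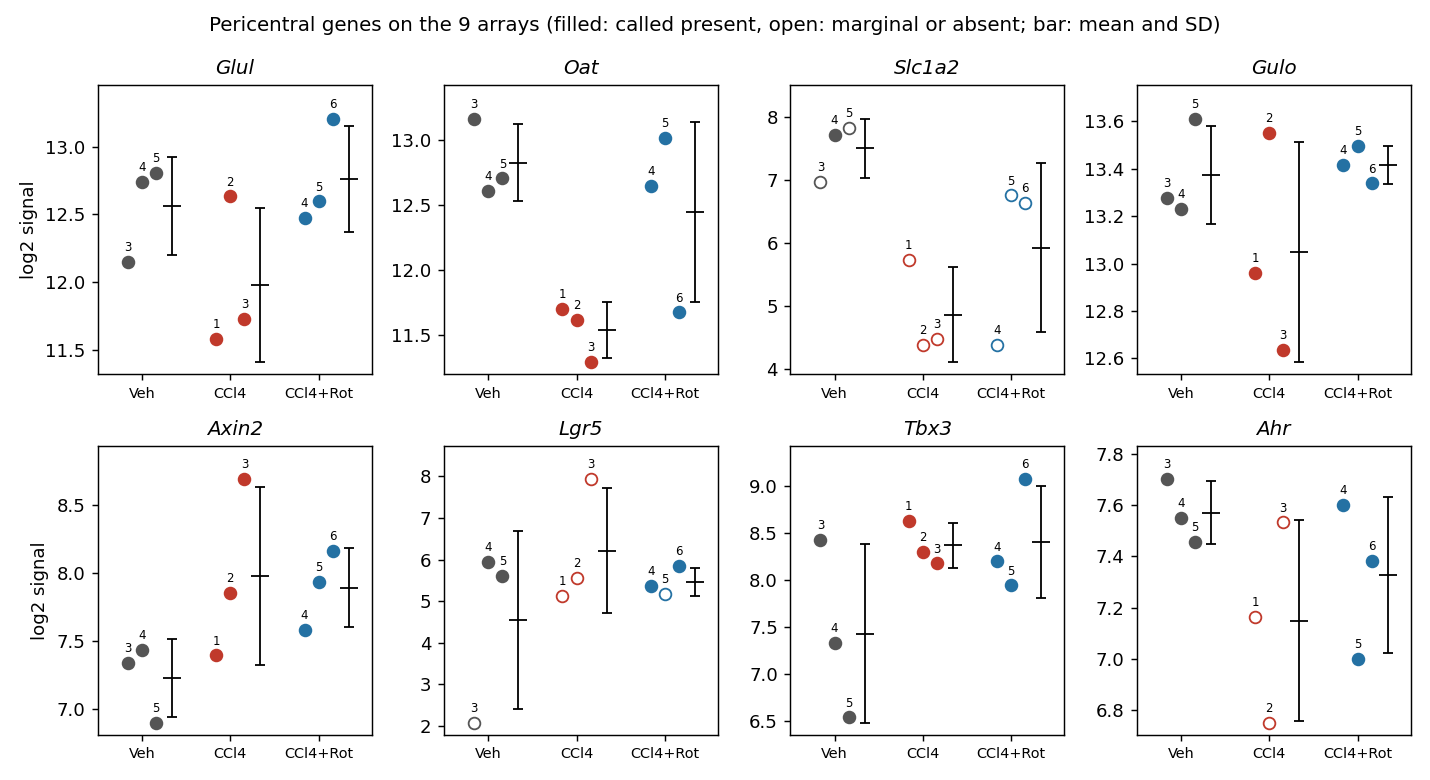
Log2 signal (vertical axes, which do not start at 0) of the 8 measured genes in each rat of the vehicle (Veh, grey), CCl4 (red) and CCl4+Rot (blue) groups, with the rat's label number above the point. Filled points were called present, open points marginal or absent, and bars give the mean and SD of 3 arrays; the CCl4 points of Oat, between 11.29 and 11.70, lie below all vehicle points, between 12.61 and 13.16.

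RefSeq start-site windows (build GRCr8) were at hand for 6 of the 9 genes, with 2 starts each for Glul and Slc1a2, and not for Gulo, Lgr5 or Tbx3. The 250 bases before each of these 8 starts were searched on both strands for CTTTGAT, a core that TCF/LEF factors, the DNA-binding partners of beta-catenin, recognise. The motif was present in 3 of the 8 windows and in 3.15% of all 33469 windows of the same length. The 3 windows are shown because Axin2 and Glul are the usual reporters of hepatocyte Wnt signaling. Capitals mark the motif or its reverse complement, ATCAAAG, and all sequences run 5′ to 3′ along the gene.
Glul, first start (chr13:68519250-68519499, plus strand): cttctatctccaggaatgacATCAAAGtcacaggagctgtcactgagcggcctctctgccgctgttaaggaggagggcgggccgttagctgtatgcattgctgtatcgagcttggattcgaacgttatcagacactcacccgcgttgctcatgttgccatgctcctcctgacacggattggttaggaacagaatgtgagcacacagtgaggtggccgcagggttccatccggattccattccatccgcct
Axin2 (chr10:94398535-94398784, plus strand): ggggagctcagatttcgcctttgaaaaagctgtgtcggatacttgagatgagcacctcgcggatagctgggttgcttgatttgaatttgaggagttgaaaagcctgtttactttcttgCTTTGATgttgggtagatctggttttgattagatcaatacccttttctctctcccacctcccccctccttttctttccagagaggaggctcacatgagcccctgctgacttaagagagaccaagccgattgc
Slc1a2, second start (chr3:109507697-109507946, plus strand): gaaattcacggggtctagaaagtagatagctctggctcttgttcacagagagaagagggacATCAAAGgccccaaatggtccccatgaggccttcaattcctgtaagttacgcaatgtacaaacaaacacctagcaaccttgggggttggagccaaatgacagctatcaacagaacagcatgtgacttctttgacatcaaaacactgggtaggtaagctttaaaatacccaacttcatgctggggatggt
The match began 230 bases before the start in Glul, 132 in Axin2 and 189 in Slc1a2. The second Glul start, the first Slc1a2 start and the windows of Oat, Rhbg and Ahr did not hold these letters. GC content was 54.4% in the Glul window shown and 67.2% at the second Glul start. A match describes the sequence only, and the arrays do not say from which start a transcript came.

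Glul (chromosome 13 in the deposited table) encodes glutamine synthetase, which joins ammonia to glutamate. Its signals were 12.15, 12.74 and 12.81 in the vehicle rats, 11.58, 12.63 and 11.73 in the CCl4 rats and 12.48, 12.60 and 13.21 in the CCl4+Rot rats. CCl4 replicates 1 and 3 were the lowest of the 9 arrays, while CCl4 replicate 2 lay within the vehicle range, so the groups overlapped. The CCl4 mean was lower than vehicle by a difference of -0.58 ± 0.35 (SE; 95% interval -1.40 to 0.24; adjusted p = 0.529). CCl4+Rot exceeded CCl4 by 0.78 (95% interval -0.04 to 1.60; adjusted p = 0.752) and vehicle by 0.20 (adjusted p = 0.963). The order of means was CCl4+Rot, vehicle and CCl4, with overlap between all neighbours.

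Both other Glul probe sets were lowest in CCl4 replicate 1, but in them CCl4 replicate 2 lay above every vehicle rat, and in 1367633_at CCl4 replicate 3 lay above vehicle replicate 3. Across the 9 arrays their Pearson correlations with the first were 0.968 (1386870_at) and 0.846 (1367633_at), a description over arrays that share scaling. Their CCl4 minus vehicle differences were -0.46 and -0.19, and their CCl4+Rot minus CCl4 differences 0.61 and 0.41. Without CCl4 replicate 3, the difference from vehicle in the first probe set was -0.46, and it was -0.38 without CCl4 replicate 1 and -0.91 without CCl4 replicate 2.

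Oat (chromosome 1) encodes ornithine aminotransferase, a mitochondrial enzyme that turns ornithine into glutamate semialdehyde and is coexpressed with Glul around the central vein. It was measured by 1 probe set, called present on all 9 arrays. Signals were 13.16, 12.61 and 12.70 in vehicle, 11.70, 11.62 and 11.29 in CCl4 and 12.64, 13.01 and 11.67 in CCl4+Rot. All 3 CCl4 rats lay below all 3 vehicle rats. Of the CCl4+Rot rats, replicates 4 and 5 lay within the vehicle range and replicate 6 within the CCl4 range.

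The CCl4 mean of Oat was 2.44-fold lower than vehicle (log2 difference -1.29 ± 0.35 SE; 95% interval -2.11 to -0.46), with an adjusted p of 0.253 in limma. By unadjusted p (0.00731) it ranked 895 of 31042 probe sets. Its adjusted p ran from 0.0493 to 0.544 over the alternatives, and the lowest came from a fit with signal-dependent, robust spread, where Oat was called. That fit called 348 of the 31042 probe sets. CCl4+Rot was higher than CCl4 by 0.91 (95% interval 0.08 to 1.73; adjusted p = 0.747) and differed from vehicle by -0.38 (adjusted p = 0.886). Without CCl4 replicate 3 the first difference was -1.17 and the second 0.78. Means were therefore ordered vehicle, CCl4+Rot and CCl4, and of these pairs only vehicle and CCl4 had ranges that did not overlap.

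Slc1a2 (chromosome 3) encodes the glutamate transporter known as GLT-1, which in liver is confined to the glutamine-synthesising cells. Its brighter probe set gave 6.96, 7.72 and 7.83 in vehicle, 5.73, 4.39 and 4.47 in CCl4 and 4.39, 6.76 and 6.64 in CCl4+Rot. Only vehicle replicate 4 was called present, so the signals of the other 8 arrays are not measured levels. Every vehicle rat lay above every rat of both other groups, and the CCl4 and CCl4+Rot ranges overlapped. The mean signals were 7.51, 4.86 and 5.93, with adjusted p values of 0.249 for CCl4 against vehicle and 0.606 for CCl4+Rot against vehicle. No fold is given, since 2 of the 3 vehicle arrays were not called present either. The second Slc1a2 probe set was called present on no array.

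Gulo (chromosome 15) encodes L-gulonolactone oxidase, the last enzyme of ascorbate synthesis, which rats have and humans lack. Signals were 13.28, 13.23 and 13.61 in vehicle, 12.96, 13.55 and 12.64 in CCl4 and 13.42, 13.50 and 13.34 in CCl4+Rot. CCl4 replicates 1 and 3 were again the lowest arrays and replicate 2 lay within the vehicle range, while the CCl4+Rot rats differed little (SD 0.078). The CCl4 minus vehicle difference was -0.32 (95% interval -0.91 to 0.27; adjusted p = 0.618) and was -0.12 without CCl4 replicate 3. CCl4+Rot minus CCl4 was 0.37 (95% interval -0.22 to 0.96; adjusted p = 0.780), and CCl4+Rot minus vehicle was 0.04. All 3 groups overlapped. The second Gulo probe set correlated with the first at 0.971 over the 9 arrays and differed by -0.34 between CCl4 and vehicle.

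Axin2 (chromosome 10) encodes a scaffold of the beta-catenin destruction complex and is itself induced by Wnt, which makes it a feedback inhibitor. It gave 7.34, 7.44 and 6.90 in vehicle, 7.39, 7.85 and 8.69 in CCl4 and 7.58, 7.93 and 8.16 in CCl4+Rot. CCl4 replicate 3 was the highest of all arrays, and CCl4 replicate 1 lay within the vehicle range. Every CCl4+Rot rat lay above every vehicle rat. The CCl4 minus vehicle difference was 0.75 ± 0.35 (SE; 95% interval -0.06 to 1.57; adjusted p = 0.436). It was 0.40 without CCl4 replicate 3. CCl4+Rot exceeded vehicle by 0.67 (95% interval -0.15 to 1.49; adjusted p = 0.712). Between CCl4+Rot and CCl4 the difference was -0.09 (95% interval -0.91 to 0.73), turning to 0.27 when CCl4 replicate 3 was left out and to 0.07 when CCl4+Rot replicate 4 was.

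Lgr5 (chromosome 7) encodes an R-spondin receptor that marks pericentral hepatocytes and many epithelial stem cells. Its signals were 2.07, 5.94 and 5.60 in vehicle, 5.13, 5.56 and 7.93 in CCl4 and 5.36, 5.17 and 5.84 in CCl4+Rot. It was called present on 4 arrays, vehicle replicates 4 and 5 and CCl4+Rot replicates 4 and 6, and on no CCl4 array, although its highest signal was that of CCl4 replicate 3. No fold is given between CCl4 and either other group for this reason. CCl4+Rot minus vehicle was 0.92 (95% interval -1.68 to 3.52; adjusted p = 0.930), and it was -0.31 without vehicle replicate 3.

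Tbx3 (chromosome 12) encodes a T-box transcriptional repressor and a beta-catenin target in liver. Its brightest probe set (1393160_at) was called present on all arrays, with 8.42, 7.33 and 6.54 in vehicle, 8.63, 8.29 and 8.17 in CCl4 and 8.19, 7.94 and 9.07 in CCl4+Rot. The vehicle rats were far apart, and replicate 3 of that group lay within the range of both others. Differences from vehicle were 0.93 for CCl4 (95% interval -0.22 to 2.09; adjusted p = 0.479) and 0.97 for CCl4+Rot (95% interval -0.19 to 2.13; adjusted p = 0.702). They were 1.43 and 1.47 without vehicle replicate 3, and 0.49 and 0.52 without vehicle replicate 5. The second was 0.64 without CCl4+Rot replicate 6 and 0.28 when all Tbx3 probe sets were averaged. CCl4+Rot minus CCl4 was 0.04 (95% interval -1.12 to 1.19), and -0.93 when all Tbx3 probe sets were averaged, most of them called present on few arrays or none.

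The 3 further Tbx3 probe sets did not follow this one closely, with correlations of 0.333 to 0.559 over the 9 arrays. Probe set 1377230_at was called present on no array, yet its groups were narrow. It gave 3.48, 2.75 and 2.49 in vehicle, 4.60, 5.04 and 4.67 in CCl4 and 2.97, 2.56 and 2.66 in CCl4+Rot. The CCl4 rats were above all the others, but such signals are not above background, so neither a fold nor a test is given.

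Ahr (chromosome 6) encodes the aryl hydrocarbon receptor, a ligand-activated factor that induces Cyp1a genes. Signals were 7.70, 7.55 and 7.46 in vehicle, 7.16, 6.75 and 7.53 in CCl4 and 7.60, 7.00 and 7.38 in CCl4+Rot. All 3 vehicle and all 3 CCl4+Rot arrays were called present and no CCl4 array was (replicate 1 was marginal), although the ranges of the 3 groups overlapped. In CCl4 against vehicle the mean signals differed by -0.42 (95% interval -1.01 to 0.17, adjusted p = 0.524). In CCl4+Rot against CCl4 they differed by 0.18 (95% interval -0.41 to 0.77, adjusted p = 0.872). With no CCl4 array called present, both are differences of signals and no fold is given. Without CCl4 replicate 2 the first was -0.22, and the CCl4+Rot mean no longer exceeded that of CCl4. The measured CCl4+Rot minus vehicle difference was -0.24 (95% interval -0.83 to 0.35; adjusted p = 0.906). The second Ahr probe set was called present on no array. Its signal was higher in every CCl4 rat than in every vehicle rat, opposite to the first, but such signals are not above background.

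**Figure D2:**
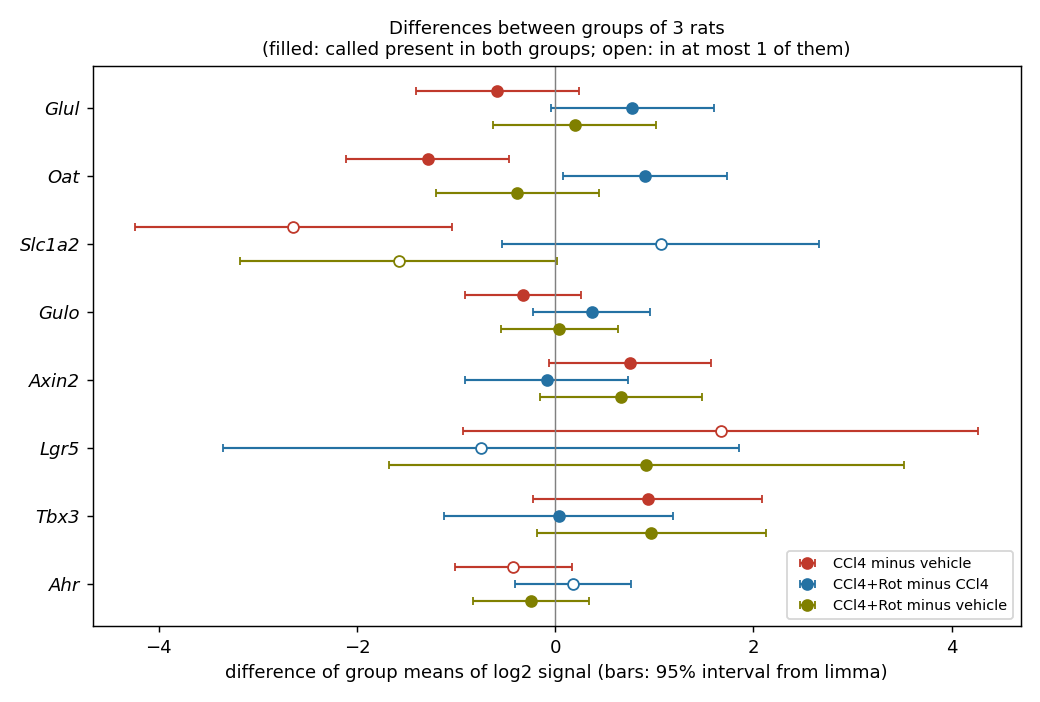
Differences between group means of log2 signal (horizontal axis) for each of the 8 genes, in CCl4 minus vehicle (red), CCl4+Rot minus CCl4 (blue) and CCl4+Rot minus vehicle (olive), with the 95% interval from limma. Open points mark genes called present in at most 1 of the groups, whose positions are differences of signals and not measured changes; the interval excludes 0 for Oat and Slc1a2 in CCl4 minus vehicle and for Oat in CCl4+Rot minus CCl4, before any adjustment for the number of probe sets.

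The counts over the 8 genes are given here beside the shares over all probe sets. In CCl4 against vehicle 0 of the 8 genes was called, and 0% of the 31042 probe sets were. At an unadjusted limma p below 0.05, 0 genes were higher and 2 lower (Oat and Slc1a2), where 8.64% of probe sets were higher and 3.72% lower. The groups did not overlap for 0 genes in the higher and 2 in the lower direction, with 11.1% and 7.14% over all probe sets. Slc1a2, part of both counts, was called present only in vehicle replicate 4, so its other signals are not measured levels. The median difference was -0.37 over the signals of all 8 genes, -0.32 over the 5 called present in both groups and 0.18 over all probe sets. For the 8 genes it turned to 0.18 when the probe sets of a gene were averaged, and was -0.73 with each array centred on its median. That average takes in probe sets of Slc1a2, Tbx3 and Ahr called present on no array.

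In CCl4+Rot against CCl4, 0 of the 8 genes was called and 0.00322% of probe sets were. At the unadjusted p, 1 gene was higher (Oat) and 0 lower, against 1.97% and 4.65% of probe sets. No gene had groups that did not overlap, where 4.73% of probe sets did so in the higher and 6.88% in the lower direction. The medians were 0.27 over the signals of all 8 genes, 0.37 over the 5 called present in both groups and -0.12 over all probe sets. The first turned to -0.17 when the probe sets of a gene were averaged, those present on no array included, and was 0.52 with each array centred on its median.

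In CCl4+Rot against vehicle, 0 genes and 0.0258% of probe sets were called. At the unadjusted p there were 0 genes in either direction, against 5.63% of probe sets higher and 2.68% lower. Axin2 was the 1 gene with groups that did not overlap in the higher direction (11.9% of probe sets). Slc1a2, called present on no CCl4+Rot array, was the 1 in the lower direction (9.15%). The median difference was 0.12 over the signals of the 8 genes, 0.20 over the 7 called present in both groups and 0.01 over all probe sets.

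The pooled SD between rats of one group was 0.295 for Ahr, 0.297 for Gulo, 0.448 for Axin2, 0.450 for Glul, 0.452 for Oat and 0.658 for Tbx3. It was 0.925 for Slc1a2 and 1.53 for Lgr5. Its median was 0.217 over the 11231 probe sets present on every array and 0.496 over all probe sets, so that each of the 5 members present on every array lay above the first of these. Centring each array on its median instead of the deposited scaling would lower every CCl4 minus vehicle difference by 0.36, so that Oat stood at -1.65, Glul at -0.94 and Axin2 at 0.40. It would add 0.25 to every CCl4+Rot minus CCl4 difference.

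Other pericentral genes gave a mixed picture. Of 18 measured, P450s included, none was called, and at the unadjusted p 2 were higher and 2 lower in CCl4 than in vehicle, with a median difference of -0.16. Named after their values were seen, the higher ones were Aldh1a1, a retinal dehydrogenase (1.40), and Cyp7a1, the rate-limiting enzyme of bile acid synthesis (0.90). The carboxylesterase Ces1d was among the lower ones (-0.87). Cyp2e1, which activates CCl4, differed by -0.33 (adjusted p = 0.600) between CCl4 and vehicle, and by 0.42 (adjusted p = 0.765) between CCl4+Rot and CCl4. Cyp1a2 differed by -0.35 and 0.31 in these comparisons. Lect2, a secreted hepatocyte protein and beta-catenin target, was higher by 0.91 in CCl4+Rot than in vehicle (adjusted p = 0.594). In CCl4+Rot against CCl4, 16 of the 18 had higher means and the median was 0.17. Higher means in that comparison were not particular to this list. They were found for 13 of 16 periportal genes and 9 of 9 hepatocyte markers, and for 5 of 13 Wnt and R-spondin ligands and receptors.

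On the periportal side, 16 genes were measured and none was called, but 7 were lower in CCl4 than in vehicle at the unadjusted p and 1 higher (the aldehyde dehydrogenase Aldh1b1, by 1.57, named after its value was seen), with a median of -0.48. Gls2, the liver glutaminase that opposes glutamine synthesis, differed by -0.96 (adjusted p = 0.275). Hal, which starts histidine breakdown, differed by -1.21 (adjusted p = 0.331). The urea cycle enzymes Ass1 and Cps1 differed by -0.49 and -0.26. In CCl4+Rot against CCl4 the periportal median was 0.17 and 0 genes reached the unadjusted p in either direction.

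**Figure D3:**
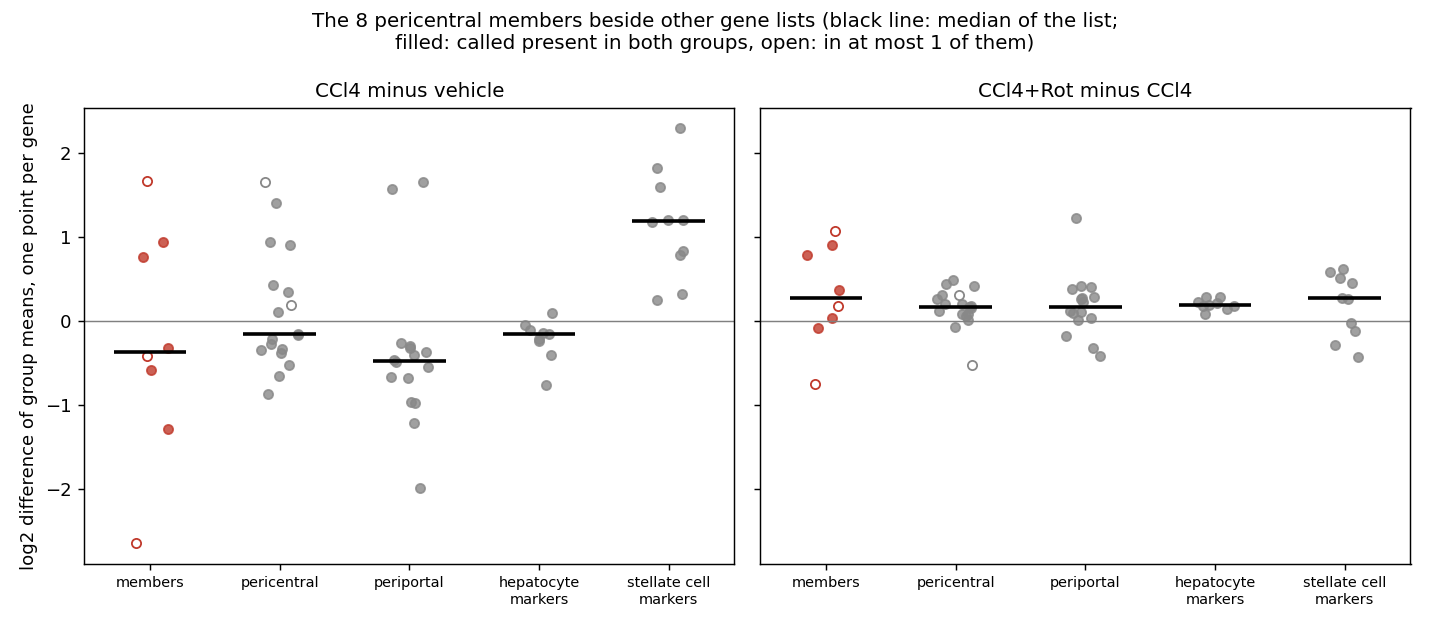
Log2 difference of group means (vertical axis) for each gene of 5 lists, in CCl4 minus vehicle (left) and CCl4+Rot minus CCl4 (right), with the list's median as a black line. Filled points were called present in both groups, open points in at most 1, where the position is not a measured change; the 5 filled members (red) lie from -1.29 to 0.93 in CCl4 minus vehicle, and the stellate cell markers lie above 0.

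Among 12 measured Wnt/beta-catenin targets, none was called. At the unadjusted p 1 was higher and 0 lower in CCl4 than in vehicle, namely Nkd1, a Wnt feedback inhibitor, by 1.37 (adjusted p = 0.214). Nkd1 was also higher in CCl4+Rot than in vehicle, by 0.99 (adjusted p = 0.383), and in both cases the groups did not overlap. Znrf3, which removes Wnt receptors from the membrane, differed by -0.39 between CCl4 and vehicle (adjusted p = 0.560), also with groups that did not overlap. The cell cycle gene Ccnd1 differed by 0.46.

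For Wnt and R-spondin ligands and receptors, 13 were measured, of which 4 were called present on no array. At the unadjusted p 2 were higher and 1 lower in CCl4 than in vehicle. Wnt2, an endothelial ligand of the central vein, was higher by 0.99 (adjusted p = 0.233), with groups that did not overlap. The other higher gene was Wls, which carries Wnt proteins to the cell surface (1.02, adjusted p = 0.343). The lower one was Lgr4, an R-spondin receptor related to Lgr5 (-0.80, adjusted p = 0.231), which was higher by 0.62 in CCl4+Rot than in CCl4 (adjusted p = 0.724), and in neither comparison did its groups overlap. Wls and Lgr4 were named after their values were seen. Rspo3 differed by 0.48 (adjusted p = 0.455) and the coreceptor Lrp6 by -0.27. In CCl4+Rot against vehicle Wnt2 was higher by 0.71 (adjusted p = 0.462).

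For glutamine and glutamate handling, 19 genes were measured and none was called. In CCl4 against vehicle 4 were higher and 4 lower at the unadjusted p. Apart from Slc38a3 these are named after their values were seen. The higher ones were Aldh18a1, which makes proline precursors from glutamate (1.27, adjusted p = 0.162), and the amino acid transporters Slc1a3 (1.22), Slc1a4 (1.31) and Slc7a5 (1.39). The lower ones were the transaminase Gpt (-1.40), the proline oxidase Prodh (-1.12) and the transporters Slc38a4 (-0.53) and Slc38a3, a hepatocyte glutamine carrier (-0.55, adjusted p = 0.391). Glud1, glutamate dehydrogenase, differed by -0.05. The glutamate transporter Slc1a1 was called present on no array.

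The ascorbate pathway held 5 measured genes other than Gulo, of which 0 were higher and 1 lower in CCl4 than in vehicle at the unadjusted p. The latter was Ugp2, which makes UDP-glucose, at -1.01 (adjusted p = 0.202). It was higher by 0.50 in CCl4+Rot than in CCl4 (adjusted p = 0.749), its groups overlapped in neither comparison, and it was named after its values were seen. Ugdh, Akr1a1 and Rgn, which also act before Gulo, differed by 0.09, 0.25 and -0.09 between CCl4 and vehicle. Around Ahr, 9 partners and targets were measured, with 1 higher and 0 lower in CCl4 at the unadjusted p. That one was the target Cyp1b1, by 1.78 (adjusted p = 0.259), with groups that did not overlap, and it was named after its values were seen. The partner Arnt differed by -1.45 (adjusted p = 0.503), the targets Tiparp and Nqo1 by 0.08 and 1.18 (adjusted p = 0.480 for Nqo1), and Cyp1a1 was called present on no array.

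Markers of cell types are given beside these values. The 9 hepatocyte markers had a median difference of -0.16 between CCl4 and vehicle and 0.18 between CCl4+Rot and CCl4, with none past the unadjusted p in either. Their summed signal was 227795 to 254954 in vehicle, 172824 to 249003 in CCl4 and 240503 to 256863 in CCl4+Rot. Alb differed by -0.14, Ttr by -0.11 and Hnf4a by -0.41 between CCl4 and vehicle. Stellate cell and myofibroblast markers were higher at the unadjusted p in 6 of 10 genes in CCl4 against vehicle, with summed signals of 9061 to 14196 in vehicle, 19804 to 34953 in CCl4 and 29654 to 37103 in CCl4+Rot. Col1a1 differed by 2.29 between CCl4 and vehicle (adjusted p = 0.171).

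Macrophage markers summed to 13671 to 17604 in vehicle, 24210 to 29968 in CCl4 and 25909 to 32840 in CCl4+Rot, and Cd68 differed by 0.68 (adjusted p = 0.354) between CCl4 and vehicle. Cholangiocyte markers summed to 919 to 1096, 2644 to 5467 and 1322 to 2516 in the same order, and Krt19 differed by 0.20. Endothelial markers, from the cells that supply Wnt ligands, summed to 8866 to 10015, 6726 to 9455 and 9189 to 10072, with 0 of 5 past the unadjusted p in CCl4 against vehicle. T and B cell markers, 3 of 6 of them present on no array, summed to 419 to 495, 353 to 1322 and 418 to 550. The part of these cell types in the members' values was not tested.

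For each of the 5 members present on all arrays, the genes with the most similar pattern were sought by Pearson correlation over the 9 arrays among 7057 genes, as a description. Glul was nearest to RGD1559600 (0.934), Uba2, a subunit of the SUMO-activating enzyme (0.919), and the peptidase Nln (0.915). Oat was nearest to the lysosomal mannosidase Man2b1 (0.955), Hsd17b12, a fatty acid elongation enzyme (0.951), and Ivd, an enzyme of leucine breakdown (0.951). Gulo was nearest to Aldh1l1, a folate enzyme (0.947), the mitochondrial ATP synthase subunit Atp5a1 (0.945) and the proteasome activator Psme1 (0.937). Axin2 was nearest to the GTPase Nras (0.969), the kinetochore gene Cenpk (0.961) and Rfx5 (0.951), and Tbx3 to Arhgdia (0.977), Fam89b (0.962) and Rnpepl1 (0.945). No member was among the nearest genes of another. Between members, Glul and Gulo had the highest correlation over the 9 arrays (0.749), and Glul and Oat had 0.249.

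**Figure D4:**
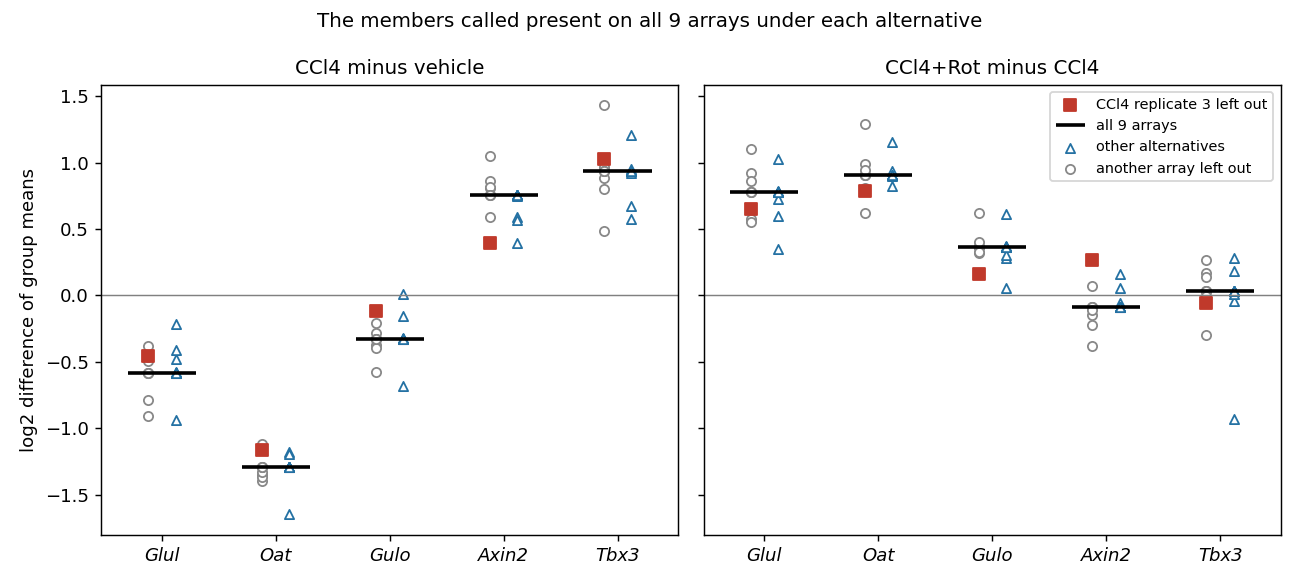
Log2 difference of group means (vertical axis) for the 5 genes present on all 9 arrays, with all arrays (black line), with 1 array left out (circles, and a red square for CCl4 replicate 3) and under the other alternatives (triangles). Oat lies between -1.65 and -1.12 in CCl4 minus vehicle (left) and between 0.62 and 1.29 in CCl4+Rot minus CCl4 (right), whereas Axin2 and Tbx3 lie on both sides of 0 in the right panel.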

How the data were processed

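Liver RNA of 9 rats was amplified to biotinylated cRNA and measured on Affymetrix rat 3′ expression arrays. The deposited table holds log2 signals and, as other values, detection calls (present, marginal or absent) for 31099 probe sets. Per the labels, MAS5 and affy were used, with versions and genome build not given in the sources used here. The antilog trimmed mean was 500 on every array (2% trimmed from each end), so the authors had scaled the arrays. Over the probe sets present on every array, the median of CCl4 replicate 3 was 9.53, against 9.51 to 9.58 on the others. Why the overall median of that array was higher was not tested.

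After removal of 57 control probe sets, 31042 were fitted in limma 3.58.1 (R 4.3.3, statmod 1.5.0) with 3 group means and no covariate, and Benjamini-Hochberg adjustment covered all of them. Calls required an adjusted p under 0.05 plus a 1.5-fold difference. A gene called present in neither group received no fold, and one present in a single group, on most of its arrays, received a bound, with each signal of the other group raised to at least the lowest present signal on its array. An exact permutation test of 3 against 3 rats cannot go below 0.1. Precision is limited by the number of arrays. The fit was run on simulated arrays with known differences and independent normal noise, equal in all groups. That checks the code and says nothing of an array that stands apart, such as CCl4 replicate 3.

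The 9 members, the gene lists and the tests were chosen with earlier results of these data known. The named genes were the members, the 3 genes most correlated with each member present on all arrays, and a fixed set of companion genes, of which Rnf43, Wnt9b and Fzd8 had no probe set of their own. Probe sets naming several genes were not used for companions. Lists omit the members. Some listed genes are not reported here.
Alternatives were quantile normalization, median centring, filters on dim probe sets, a fit of the compared groups alone, trend and robust spread, array weights, omission of single arrays, a random block for the label number, other choices of probe set or fold threshold, and the t-test named among the statistics of the study (the methods' t-test).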

Additional observations from a re-analysis of the deposited data

How the results depend on the processing

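Of 322 alternative values for differences of single members, 302 kept their direction and their side of the threshold, 19 had the opposite sign and 1 became significant, Oat in CCl4 minus vehicle. The median difference of the members was, in CCl4 minus vehicle, -0.73 with each array centred on its median, -0.10 with array weights and 0.18 when all probe sets of a gene were averaged. In CCl4+Rot minus CCl4 it was 0.52 with median centring and -0.17 with the mean of probe sets. In CCl4+Rot minus vehicle it ran from -0.094 to 0.24 with 1 array left out, the lowest without vehicle replicate 3. Members called were 1 (Oat) with trend and robust estimation and 2 by the methods' t-test, unadjusted, in CCl4 minus vehicle, and 1 by that unadjusted test in CCl4+Rot minus vehicle. The probe sets called, 0 in CCl4 minus vehicle, became 78 among those present on at least 3 arrays, 4 without the dimmest 30%, 348 with trend and robust estimation and 1774 by the unadjusted t-test. In CCl4+Rot minus CCl4, where 1 was called, quantile normalization, both filters, a fit of the 2 groups alone and the adjusted t-test gave 0, the unadjusted t-test gave 851, and leaving out 1 array gave 0 to 2. In CCl4+Rot minus vehicle, where 8 were called, the counts were 3 (quantile), 2 (median centring), 63 (present on at least 3 arrays), 22 (without the dimmest 30%), 1 (2 groups alone), 241 (trend and robust), 73 (array weights), 0 (adjusted t-test), 2126 (unadjusted t-test) and 0 to 24 with 1 array left out. Opposite signs were found for Ahr in CCl4+Rot minus vehicle (0.42, mean of probe sets). For Axin2 in CCl4+Rot minus CCl4 they were 0.16 (median centring), 0.056 (array weights) and -0.38 to 0.27 with 1 array left out. Gulo gave 0.012 in CCl4 minus vehicle (array weights), and in CCl4+Rot minus vehicle -0.069 (median centring), -0.0255 (mean of probe sets) and -0.029 to 0.16 with 1 array left out. Tbx3 in CCl4+Rot minus CCl4 gave -0.043 (array weights), -0.93 (mean of probe sets) and -0.30 to 0.27 with 1 array left out. In CCl4+Rot minus vehicle, leaving out 1 array gave -0.028 to 0.34 for Glul, -0.31 to 1.62 for Lgr5 and -0.67 to 0.0030 for Oat. The cause was not tested in any of these. The probe set with the most present calls was the one already used for all 8 genes. Replicate numbers shared between groups mark different rats, and the deviations of equally numbered arrays correlated at 0.02 to 0.07, so they were not paired. With the number as a replicate block, the median differences were -0.37, 0.27 and 0.13 and no call of a member changed. Signals of Slc1a2 and Lgr5 lay near background on most arrays, which limits both genes to the values given.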
